A study of Mus musculus with 12 samples.

Results

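Retained introns are introns that stay in some transcripts of a gene while other transcripts of the same gene have them spliced out. The catalogues of transcript events of 12 libraries from BV-2 (mouse microglia made immortal for culture) listed 4640 distinct retained introns among 141591 distinct events of all kinds. They were found as the lines typed as intron retention and counted as distinct by type, gene, chromosome, start and end. Each of these lines had a partner line for the spliced form in the same catalogue, so an intron is listed only where a library's catalogue held both a retaining and a spliced form. The values are listings, without read counts or depth, and do not measure what share of a gene's RNA keeps the intron.

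The groups were Control (untreated), LPS (bacterial lipopolysaccharide, which activates microglia through Toll-like receptors), NMN (nicotinamide mononucleotide, a precursor of the coenzyme NAD) and LPS+NMN (both agents), with 3 libraries in each. All libraries came from the same cell line, and neither dose nor time is given by the labels. The study's stated purpose was to compare LPS+NMN with LPS in connection with ferroptosis, an iron-dependent form of cell death. The labels give the cell type as "macroglia", while BV-2 is a microglial line. Of 15 microglia and macrophage markers 12 were listed in all 12 libraries, and 15 in at least 1. Of 7 astrocyte markers 3 were listed in at least 1 library and 1 in all 12, with Aqp4, Aldh1l1, Slc1a3 and Gja1 in none. Of 8 oligodendrocyte markers 6 were listed in at least 1 library and 3 in all 12, of 7 neuron markers 4 and 1, and of 8 T and B cell markers 4 and 0. A listing gives no level.

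Splicing removes introns by recognising a donor site at the 5′ end, usually GT, and an acceptor site at the 3′ end, usually AG. Transcripts that keep an intron often stay in the nucleus, or carry an early stop codon and are degraded by nonsense-mediated decay, and genes of the splicing machinery are known to control their own output in this way. A separate, cytoplasmic reaction removes a short intron from Xbp1 mRNA, where the endoplasmic reticulum stress sensor IRE1 cuts the RNA and a ligase rejoins it, giving the active XBP1 transcription factor.

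Of the 4640, 2902 were single introns in the exact form, in which the retaining exon and the spliced pair share both outer ends. Another 1222 were single introns in the approximate form. Events over several introns numbered 378 in the exact and 138 in the approximate form, and 85.7% of them covered 2 introns. Of the library entries in the exact forms 100% shared both outer ends with their spliced partner, and of those in the approximate forms 2.52%. The 4640 lie at 3773 positions, of which 752 were listed in both forms, and 55.1% of positions overlapped another position of the same gene. Members of a gene are therefore not independent of each other.

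The sequences below are of introns described in the results. Those of Ghdc, Anapc5 and U2af1l4 are the shortest in every library with annotated ends, those of Dpp7, Tap1, Por and Hnrnph1 are introns in every library from genes with many retained introns or from the gene lists, and those of Cfb, Fes, Adgrl1 and Izumo4 are short coding introns whose listing differed between groups. They were read from GENCODE M21 transcripts (GRCm38) in which the intron lies inside an annotated exon. Capitals mark the first and last pair of bases and, between them, the first in-frame stop codon where there is one. In Ghdc, Anapc5 and Fes that stop codon starts at the second base of the intron, so its capitals run on from the donor site.
Ghdc, 70 nt: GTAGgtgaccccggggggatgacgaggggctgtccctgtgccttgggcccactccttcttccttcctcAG
Anapc5, 71 nt: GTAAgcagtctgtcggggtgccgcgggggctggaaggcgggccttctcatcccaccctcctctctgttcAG
U2af1l4, 71 nt: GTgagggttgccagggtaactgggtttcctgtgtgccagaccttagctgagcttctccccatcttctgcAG
Dpp7, 75 nt: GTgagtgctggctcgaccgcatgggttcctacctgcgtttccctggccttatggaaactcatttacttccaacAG
Tap1, 84 nt: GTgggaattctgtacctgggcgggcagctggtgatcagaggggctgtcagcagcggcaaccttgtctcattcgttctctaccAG
Por, 92 nt: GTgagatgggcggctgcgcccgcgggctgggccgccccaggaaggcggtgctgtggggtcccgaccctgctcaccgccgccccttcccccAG
Hnrnph1, 197 nt: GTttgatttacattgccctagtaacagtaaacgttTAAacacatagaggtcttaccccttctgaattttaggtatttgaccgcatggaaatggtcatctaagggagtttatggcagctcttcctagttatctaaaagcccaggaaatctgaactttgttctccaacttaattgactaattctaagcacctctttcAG
Cfb, 74 nt: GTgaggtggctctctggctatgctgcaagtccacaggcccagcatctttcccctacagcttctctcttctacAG
Fes, 79 nt: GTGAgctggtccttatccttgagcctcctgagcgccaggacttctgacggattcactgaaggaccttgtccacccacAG
Adgrl1, 135 nt: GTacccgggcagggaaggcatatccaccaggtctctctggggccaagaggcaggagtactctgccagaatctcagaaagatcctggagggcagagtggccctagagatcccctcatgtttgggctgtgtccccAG
Izumo4, 96 nt: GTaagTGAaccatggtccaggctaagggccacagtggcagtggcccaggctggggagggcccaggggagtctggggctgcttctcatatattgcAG

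The shortest intron listed in all 12 libraries was the 26-nt intron of Xbp1, the only exact single intron under 60 nt found in every library. Its retaining exon had 146 bases in the files, the length of 1 annotated Xbp1 exon (GRCm38, chr11:5524239-5524384, plus strand). The listed intron starts at base 40 of that exon. In the sequence below, which runs from its first base to 6 bases past its end (chr11:5524278-5524309), capitals mark a 6-base repeat.
Xbp1, 26 nt with 6 following bases: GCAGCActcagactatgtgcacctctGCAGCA
Because of the repeat, 7 placements of the 26-nt gap leave the same spliced sequence, and the file's placement is the leftmost. None of the annotated introns of Xbp1 had this length, and the ends lack the GT and AG of ordinary introns. Both forms of the Xbp1 transcript were thus listed in each of the 3 Control, 3 LPS, 3 NMN and 3 LPS+NMN libraries, and the listings give no measure of their ratio.

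Single introns in the exact form had a median length of 328 nt, against 1416 nt for all annotated introns of listed genes. Introns that GENCODE M21 places inside an exon of another transcript, and which could therefore be seen as retained, had a median of 278 nt. Over all 4640 members the median was 425 nt, and the middle 50% of lengths ran from 131 to 1255 nt. The exact single introns in all 12 libraries were shorter, with a median of 169.5 nt, and 55.6% of them were under 200 nt. Members in 1 library only had a median of 306 nt. After Xbp1 the shortest in every library were the 70-nt intron of Ghdc and the 71-nt introns of Anapc5, a subunit of the anaphase-promoting complex, and U2af1l4. Among the longest single introns in every library were the 2599-nt intron of Vac14, a scaffold of phosphoinositide synthesis, the 2693-nt intron of 9430015G10Rik and the 3415-nt intron of Ogt, the O-GlcNAc transferase, whose retained intron is known to respond to O-GlcNAc levels.

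**Figure D1:**
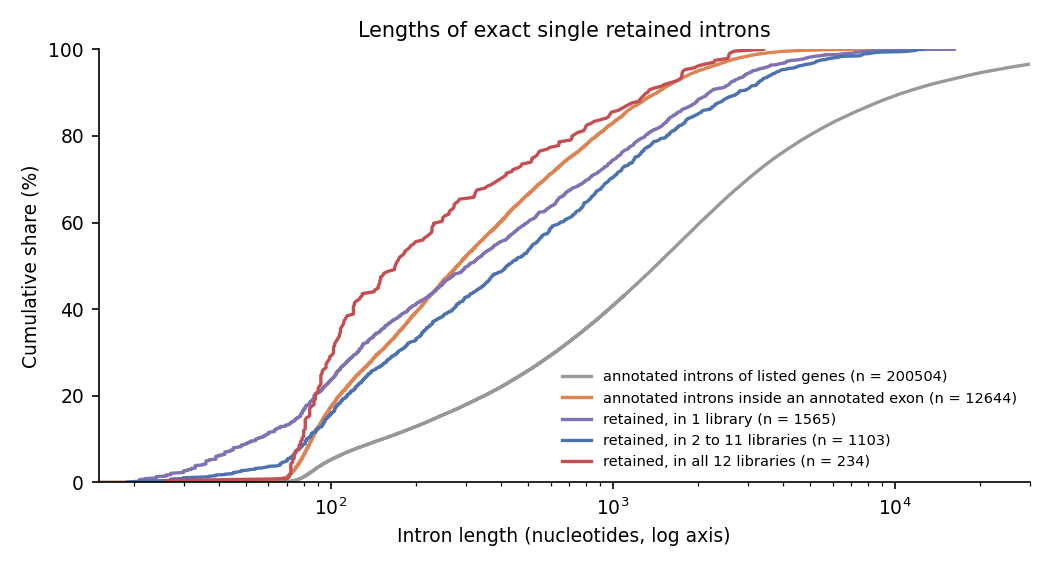
Cumulative share (%) of intron lengths (nucleotides, log axis) for exact single retained introns by the number of libraries that list them, for all annotated introns of listed genes and for annotated introns that lie inside an annotated exon; lengths under 10 nt are not drawn. Introns in all 12 libraries have a median of 169.5 nt, those in 1 library 306 nt and all annotated introns 1416 nt.

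Most retained introns were seen once. Of 4640, 2593 (55.9%) were listed in 1 library and 327 (7.05%), in 225 genes, in all 12. Skipped exons were in 1 library in 42.1% and in all 12 in 10.8% of cases, and alternative exon ends in 47.4% and 10.5%. Counted by position, whatever the form, 54.0% were in 1 library and 7.58% in all 12. Libraries of the same group shared on average 36.8% of the introns listed in either of a pair (12 pairs, 34.4% to 38.9%), and libraries of different groups 35.7% (54 pairs, 32.5% to 37.9%). Depth is unknown, so a missing entry cannot be told apart from too few reads.

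Recurrent introns were also those known to the annotation. The submitters' processing notes name the build GRCm38, but the listed positions differ from GRCm38, and no other assembly is named. Introns were therefore matched by gene, chromosome and identical length. Of exact single introns in 1 library, 38.7% had the length of an annotated intron of their gene. The share was 61.7% in 2 to 5 libraries, 83.2% in 6 to 11 and 96.6% (226 of 234) in all 12. For lengths 1 base longer the match was between 1.66% and 4.27%, which shows how often a match arises by coincidence of length. Of introns matched to 1 annotated intron, the share that lies inside an annotated exon, and so was annotated as retained, was 31.6%, 41.9%, 69.8% and 96.3% in the same order. Whether the catalogues were themselves made with an annotation is not known, and its part in these shares was not tested.

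**Figure D2:**
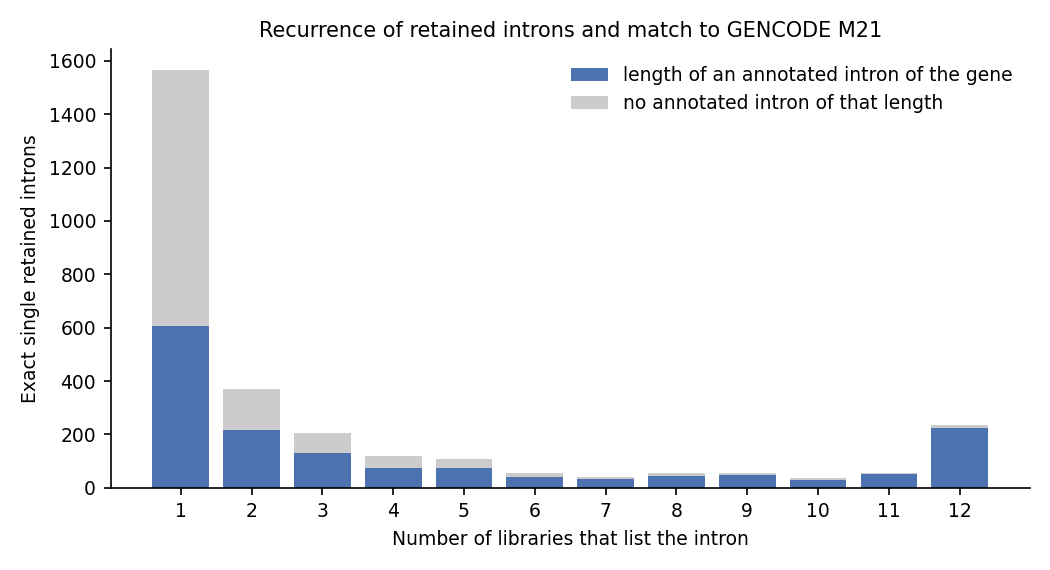
Number of exact single retained introns by the number of libraries that list them, divided into those with the length of an annotated intron of the gene (GENCODE M21) and those without. The bar for 1 library holds 1565 introns, of which 605 matched, and the bar for all 12 holds 234, of which 226 matched.

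The introns listed throughout lay inside genes rather than at their ends. Of 237 annotated introns found in all 12 libraries, in either single form, 84.4% interrupted coding sequence, 4.22% were the first and 2.53% the last intron of their transcript. Of 11801 annotated introns of listed genes that lie inside an annotated exon and were not found as retained, 73.7% were coding, 18.2% first and 16.1% last. Base composition was similar, with a median GC content of 51.1% and 51.4%. The median log-odds score of the donor site was 7.13 (middle 50%: 5.36 to 8.77) and 7.45 (5.46 to 8.90), so these ranges largely overlap. The transcripts that hold the 237 introns were annotated as nonsense-mediated decay for 83, processed transcript for 81, protein coding for 74 and retained intron for 63, with some introns in more than 1 class. The files give no expression level, and its part in these shares was not tested.

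Of the coding introns in all 12 libraries, 45.5% (of 200) had a length divisible by 3, against 33.5% (of 8696) of those not found. An in-frame stop codon was present in 67.9% of 196 with sequence, against 87.5%. Without a stop were 63, and 43 of these also kept the frame. Tap1, the peptide transporter of MHC class I loading, is an example. Its form with intron 6 (chr17:34192858-34192941, GRCm38, plus strand) is 28 codons longer than its spliced form. For Dpp7, a lysosomal dipeptidase, the form with intron 2 (chr2:25355954-25356028, minus strand) is 25 codons longer. The listings do not say which form of a gene is the usual one, so the shorter form may equally be read as a loss of codons. The introns of Ghdc (chr11:100768148-100768217, minus strand) and Anapc5 (chr5:122791756-122791826, minus strand) instead bring a stop codon at once. The 92-nt intron of Por, the electron donor of cytochrome P450 enzymes and a driver of ferroptosis (chr5:135734529-135734620, plus strand), has no stop codon within it and shifts the frame.

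A donor of the minor spliceosome, searched as ATATCCTT or GTATCCTT at the intron's first 8 bases on the transcribed strand, was found in 3 of 229 introns in all 12 libraries (1.31%: Selenom, Tcea2 and Tepsin), in 4 of 681 found in fewer libraries (0.587%) and in 42 of 11729 not found retained (0.358%). These counts are small and are given as a description of the letters only.

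The 4640 introns belonged to 1848 genes, 12.9% of the 14275 genes listed. Of these genes, 938 had 1 retained intron and 54 had at least 10. Those with the highest mean per library were Prpf4b (8.83), a kinase of the spliceosome, Dpp7 (8.5), Sh2d6 (8.33), Prpf39 (7.75), a component of the U1 snRNP, Dennd6b (7.58), Abtb1 (7.5), Ankrd16 (7.17), U2af1l4 (6.75), a paralog of the splicing factor that reads the acceptor site, Mrps17 (6.67), a mitochondrial ribosomal protein, and Rsrp1 (6.33), an arginine and serine rich protein. They differed in constancy. Dpp7 had 8 to 10 in each library and U2af1l4 5 to 7, while Ankrd16 ranged from 2 to 14 and Mrps17 from 0 to 13. Mrps17 had none in NMN replicates 1 and 2 and in LPS+NMN replicate 1.

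SR proteins, their kinases and RNA-binding proteins often had a retained intron, and core spliceosome genes less often. SR proteins bind exons and recruit the spliceosome. Of 28 listed SR proteins and relatives, 23 (82.1%) had a retained intron in at least 1 library. The share was 4 of 9 for the CLK and SR protein kinases that phosphorylate them (44.4%), 18 of 43 for hnRNP and other RNA-binding proteins (41.9%) and 11 of 51 for core spliceosome genes (21.6%). It was 16.7% over all genes listed in every library. SR genes also had more listed events of any kind, with a median of 8.54 per library against 3.83 in genes listed throughout, and the part of this in their share was not tested. Hnrnph1, a splicing regulator, had 6 in 11 libraries and 5 in NMN replicate 1, and its 197-nt intron 4 (chr11:50379624-50379820, plus strand) was listed in all 12. Of 16 genes known for regulated retained introns, 4 had one: Ogt (1 to 3 per library) and, in few libraries, Mdm4, Dnajb2 and Pdcd11. Clk1 and Mat2a, textbook examples of regulated retention, had none.

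Immune genes were mixed. None of 32 cytokines, chemokines and inflammatory enzymes, none of 35 genes in a list of lysosomal proteins and proton pump subunits and none of 15 microglia markers had a retained intron in any library. The cytokine genes Tnf and Il1b are among them. The lysosomal list is not complete: it leaves out Dpp7, which had 8 to 10 retained introns in each library. Of 56 interferon-response genes 10 had one (17.9%), and of 44 NFkB and Toll-like receptor genes 5 (11.4%), with Irak1, a kinase of the Toll-like receptor pathway, the highest at a mean of 3.17. Irf7 had none. The median number of introns in the transcript with the most was 3 for the cytokine list. It was 9 for the lysosomal list and 5 for the microglia markers, against 8 over all listed genes. The part of intron number in these shares was not tested.

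Ferroptosis and NAD genes were close to the background. Of 44 listed ferroptosis genes 5 had a retained intron (11.4%), with Por and Trp53 carrying 1 each in all 12 libraries and Sat1, Txnrd1 and Coq2 in fewer. Gpx4, the peroxidase that removes lipid peroxides, and Slc7a11, the cystine importer, had none. Of 33 listed NAD genes 4 did (12.1%): Nadk, the NAD kinase, with 2 or 3 introns in each library, Sirt4, Nmrk1 and Parp4. Nampt, which makes NMN in the NAD salvage pathway, had none. Of 68 cytosolic ribosomal protein genes 2 had one (2.94%), Rps13 in all 12 libraries and Rpl7a in 10. Of 32 genes of nonsense-mediated decay and RNA export 2 had one (6.25%): Nxf1, the main mRNA export receptor, in all 12, and Upf3b in 2.

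**Figure D3:**
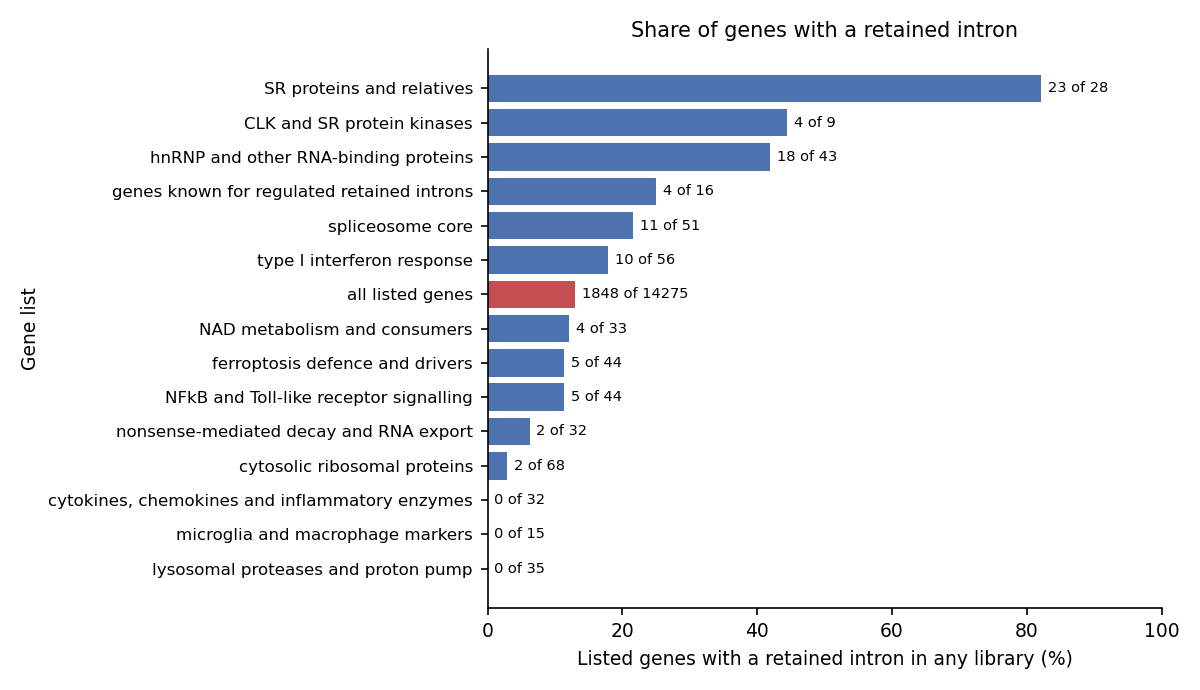
Share (%) of listed genes with at least 1 retained intron in any library, for each gene list and for all listed genes, with the counts beside the bars. SR proteins lead at 82.1% (23 of 28), all listed genes lie at 12.9%, and the lists of cytokines, microglia markers and lysosomal proteases and proton pump subunits, the last without Dpp7, are at 0.

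To see whether treatment changed the amount of listed retention, the number per library was compared. The Control libraries held 1198, 1132 and 1082 retained introns, the LPS libraries 1146, 1044 and 1120, the NMN libraries 1068, 1217 and 1284, and the LPS+NMN libraries 1214, 1245 and 1257. Means were 1137 ± 58.2 for Control, 1103 ± 53.0 for LPS, 1190 ± 111 for NMN and 1239 ± 22.2 in LPS+NMN (SD, n = 3). Every LPS+NMN library was above every LPS and every Control library, while the other groups overlapped. The difference was 135.3 for LPS+NMN against LPS and 101.3 against Control, each with a two-sided exact permutation p of 0.1, the smallest that 3 against 3 can give. LPS differed from Control by -34 (exact p = 0.5; -3.67 without Control replicate 1 and -61.7 without Control replicate 3) and NMN by 52.3 (exact p = 0.5). The comparisons with Control share the same 3 libraries. No label ties the libraries of a group to different cultures, and the p-values therefore cover the spread between libraries alone, which may be technical.

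Splicing events here are the skipped exons, alternative exon ends and retained introns together. Of these, retained introns made up 6.07%, 6.24% and 6.43% in Control, 6.57%, 6.24% and 6.41% in the LPS libraries, 6.52%, 6.79% and 6.93% in the NMN libraries and 6.94%, 7.07% and 6.91% in LPS+NMN. NMN and LPS+NMN did not overlap with Control, nor LPS+NMN with LPS. The differences were 0.499 percentage points for NMN against Control, 0.726 for LPS+NMN against Control and 0.565 for LPS+NMN against LPS (exact p = 0.1 each), and 0.161 for LPS against Control (exact p = 0.4; 0.0739 without Control replicate 1 and 0.254 without Control replicate 3). The total of splicing events varied as well: Control libraries held 18231 ± 1455, LPS libraries 17209 ± 416, NMN libraries 17609 ± 1098 and LPS+NMN libraries 17763 ± 387 (SD, n = 3), and every LPS+NMN library was above every LPS library. In Control the library with the most splicing events had the lowest share, and the part of total catalogue size in these shares was not tested.

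Over the design as a whole, the 6 libraries with NMN were set against the 6 without, with labels permuted within LPS and within no LPS. This test was chosen after the values were seen. The share of splicing events was 6.86% with and 6.33% without NMN, a difference of 0.532 points (two-sided exact permutation p = 0.005, the smallest that 400 arrangements give, and 0.02 after Benjamini-Hochberg adjustment over 8 tests). Of the 6 libraries with NMN, 5 lay above all without it. The number of retained introns was 1214 against 1120 (exact p = 0.05, adjusted 0.1). As a share of all events, first and last exons included, it was 2.29% against 2.12% (exact p = 0.02, adjusted 0.0533). For LPS against no LPS the share of splicing events differed by 0.194 points (exact p = 0.08, adjusted 0.128). The effect of NMN on this share with LPS minus that without it was 0.0658 points (exact p = 0.88), and on the number 83 introns (exact p = 0.42).

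The introns listed with NMN were also longer. The median length in Control libraries was 324.5, 328 and 324 nt, in LPS libraries 324, 322 and 349.5 nt, in NMN libraries 347.5, 379 and 372 nt and in LPS+NMN libraries 372, 372 and 389 nt. Of the 6 libraries with NMN 5 were above all those without, and the means of the medians were 371.9 and 328.7 nt (exact permutation p = 0.005, adjusted 0.02 over the same 8 tests). The 327 introns in all 12 libraries are common to every library, so that differences in the number and length of retained introns lie among those listed in 1 to 11. The share of splicing events depends on skipped exons and alternative exon ends as well. Introns in 2 to 5 libraries numbered 292.3 ± 16.3 per Control library, 276 ± 22.6 per LPS library, 335 ± 40.7 per NMN library and 339.7 ± 2.52 per LPS+NMN library (SD, n = 3). Exact single introns with an annotated length numbered 550 in LPS and 606.3 in LPS+NMN libraries, without overlap (exact p = 0.1). Those without one numbered 180.3 and 206, with overlap (exact p = 0.3).

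**Figure D4:**
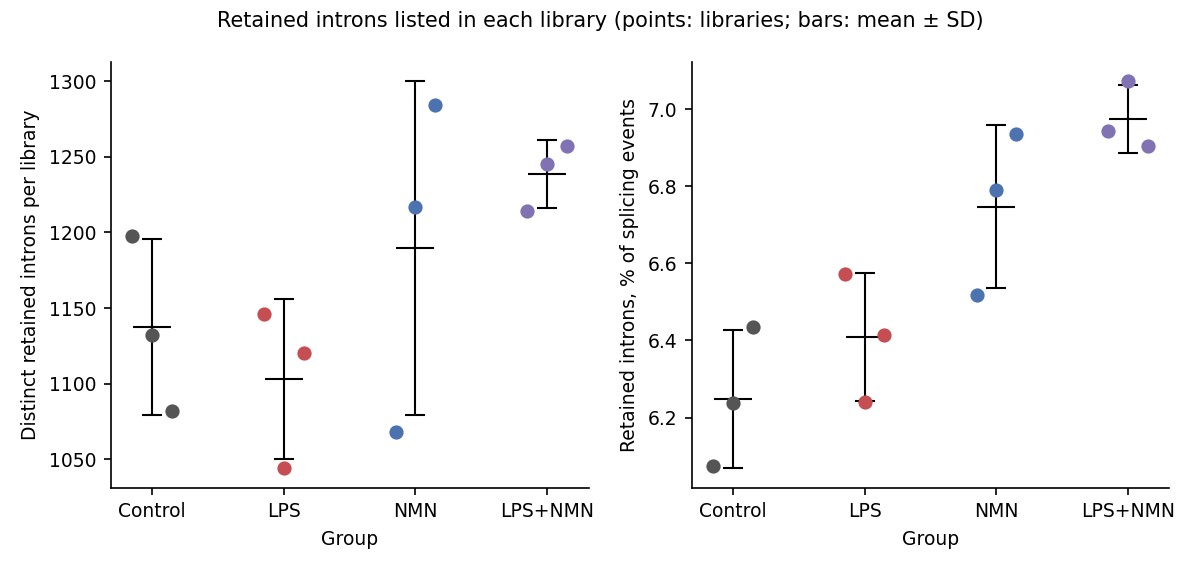
Distinct retained introns per library (left) and their share (%) of splicing events (right) in the 4 groups; points are libraries, bars the mean ± SD, and the axes do not start at 0. LPS+NMN libraries lie between 1214 and 1257 introns and between 6.91% and 7.07%, above all Control and LPS libraries.

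Per gene, limma compared log2(number of retained introns + 1) between groups, in a fit over all genes and 5 classes of event (24702 rows, Benjamini-Hochberg adjustment over all of them). Of the 1848 genes, 784 passed the filter of an event in at least 3 libraries and were not constant. For LPS against Control limma called 1 gene higher and none lower (0.085% of all rows were called higher and 0.0405% lower), with 24 higher and 36 lower at an unadjusted p under 0.05. For NMN against Control it called none in either direction (all rows 0.0729% and 0.0081%; unadjusted 44 and 22). For LPS+NMN against Control it called 1 higher and none lower (all rows 0.085% and 0.0324%; unadjusted 44 and 25). For LPS+NMN against LPS it called none (all rows 0.0121% and 0.0081%; unadjusted 30 and 15). Without trend and robust moderation the calls higher and lower were 3 and 4, 4 and 4, 5 and 4, and 3 and 1 in the same order.

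The gene called after LPS was Cfb, complement factor B, a serine protease of the alternative complement pathway that is known to be induced in inflammation. Control libraries had 1, 0 and 0 retained introns in Cfb, each LPS library 3, NMN libraries 2, 2 and 3, and LPS+NMN libraries 2, 2 and 1. The Control and LPS values did not overlap, and the log2 difference was 1.67 ± 0.29 (SE, limma adjusted p = 0.0445). Against Control the difference was 1.39 with NMN (limma adjusted p = 0.175) and 1.06 with LPS+NMN (limma adjusted p = 0.26). Cfb was listed in 2 of 3 Control libraries, and in 11 libraries in all. The call held in 5 of 14 alternative settings and was lost when any LPS library or Control replicate 2 or 3 was left out (limma adjusted p between 0.16 and 0.199). The 74-nt intron 16 (chr17:34856930-34857003, GRCm38, minus strand), printed above, was in all 9 treated libraries and in no Control library. The same 74-nt intron was counted again in its approximate form, in 3 LPS, 3 NMN and 1 LPS+NMN libraries. A 58-nt form with the same donor was in 3 LPS, 1 NMN and 1 LPS+NMN libraries. The counts in treated libraries are thus forms of the same intron and not separate introns. The Control entry was a different event, of 531 nt over several introns.

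The gene called after LPS+NMN was Ntng2, a membrane-anchored netrin of axon guidance. It was not listed in any Control library, so its Control values were 0 whatever its splicing. It passed the filter of 3 libraries through treated libraries alone. The test therefore cannot tell a difference in retention from one in gene listing. LPS libraries had 1, 7 and 6 retained introns in Ntng2, NMN libraries 1, 2 and 2, and LPS+NMN libraries 6, 8 and 12. The log2 difference from Control was 3.23 ± 0.44 (SE, limma adjusted p = 0.0116) and was past the threshold in 8 of 14 alternative settings. Leaving out any Control library or LPS+NMN replicate 3 ended the call (limma adjusted p between 0.0651 and 0.0728). For LPS against Control it was 2.27 (limma adjusted p = 0.116). Counted in the exact form only it was 2.06 (limma adjusted p = 0.203).

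Adgrl1, an adhesion receptor of the latrophilin family, showed the opposite pattern and just missed the threshold. Control libraries had 4, 3 and 1 retained introns, the 3 LPS libraries none, NMN libraries 1, 1 and 3, and LPS+NMN libraries 1 each. The LPS libraries lay below all others, with a log2 difference from Control of -1.77 (limma adjusted p = 0.0632; past the threshold in 5 of 14 alternative settings, with p between 0.00706 and 0.268 over all). Its 135-nt intron 20 (chr8:83937326-83937460, plus strand), which holds 45 codons without a stop, was in all 9 Control, NMN and LPS+NMN libraries. Adgrl1 itself was listed in all 12 libraries.

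Clk4, a kinase that phosphorylates SR proteins, had 3, 3 and 1 retained introns in Control and none in the 9 treated libraries. Clk4 passed the filter of 3 libraries through the Control libraries alone, so no test is given for it. In 2 of 3 Control libraries the entries were a 1537-nt intron in the 5′ UTR, listed in several forms, and in the third a 1690-nt coding intron. Rsrp1 had 7 in each Control, NMN and LPS+NMN library and 4, 4 and 5 in LPS, a log2 difference of -0.59 for LPS against Control (limma adjusted p = 0.256). A 913-nt intron of Rsrp1 was absent from LPS alone, and 204-nt and 344-nt introns of the same region were in 1 LPS library. Uchl1, a ubiquitin hydrolase, had 0 in Control, 1, 1 and 2 in LPS, 4, 2 and 2 in NMN and 0, 1 and 2 in LPS+NMN (1.83 for NMN against Control, limma adjusted p = 0.105). Uchl1 also passed the filter through treated libraries alone.

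None of the tested members of the lists was called. Of 13 tested SR genes 10 had a higher mean after LPS and 1 a lower, with a median log2 difference of 0.19 against 0 over all 784. For NMN against Control 9 were higher and 4 lower (median 0), for LPS+NMN against Control 8 and 4 (median 0.25), and for LPS+NMN against LPS 6 and 7 (median -0.33). The retained introns of SR genes summed to 23 to 26 per Control library, 32 to 38 in LPS, 29 to 41 in NMN and 26 to 42 in LPS+NMN. Of all 784, 390 were higher and 320 lower for LPS against Control, 447 and 287 for NMN against Control, 400 and 295 for LPS+NMN against Control, and 384 and 279 for LPS+NMN against LPS, with a median of 0 in each. Srsf5, an SR protein, had 3, 1 and 3 in Control, 5, 3 and 3 in LPS, 4 each in NMN and 6, 4 and 5 in LPS+NMN. By their means, of the hnRNP list 9 of 14 were higher after LPS and 5 lower (median 0.10), and of the spliceosome list 3 of 7 were higher and 4 lower (median -0.14). Of 4 tested interferon genes 3 had a higher mean after LPS and 1 a lower (median 0.69). Ifi44, 1 of the 4, passed the filter through treated libraries alone. Over the whole interferon list the retained introns summed to 3 to 8 per Control library, 4 to 7 in LPS, 3 to 6 in NMN and 4 in each LPS+NMN library. Sat1, a polyamine enzyme of the ferroptosis list, was the only member of that list tested.

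Introns present in all libraries of 1 group and in none of another were few. Between LPS and Control, 13 were in all LPS and no Control libraries (0.280%, against 0.447% of all events) and 28 in all Control and no LPS libraries (0.603% against 0.459%). For NMN they were 27 (0.582% against 0.407%) and 15 (0.323% against 0.353%). For LPS+NMN against Control they were 28 (0.603% against 0.477%) and 14 (0.302% against 0.441%). Between LPS+NMN and LPS, 16 were in all LPS+NMN and no LPS libraries (0.345% against 0.304%) and 4 the reverse (0.0862% against 0.269%). The members' share was above that of all events in 4 of these 8 directions and below it in 4, and was lowest against it for introns in all LPS and no LPS+NMN libraries. Some entries concern the form of an event and not the intron: the exact form of a 263-nt Srsf5 intron was in 0 Control, 2 LPS, 2 NMN and 3 LPS+NMN libraries, while its approximate form was in all 12.

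Introns confined to a single group, or missing from a single group, were fewer still. In all 3 libraries of 1 group and in no other group were 5 for Control, 0 for LPS, 4 for NMN and 2 for LPS+NMN. Missing from 1 group alone were 2 for Control, 3 for LPS, 0 for NMN and 0 for LPS+NMN. The share of all events with these patterns was not computed, so nothing particular to retained introns can be read from the counts. Those named here outside the naming rule were chosen after their values were seen. In all 3 Control libraries and no treated one were introns of Fes, a tyrosine kinase of myeloid cells, Maff, a small MAF transcription factor, and Sh2d6, an SH2 domain protein. Fes had 9, 9 and 3 retained introns in Control and 0 to 3 in treated libraries. Its 79-nt intron 6 (chr7:80383190-80383268, minus strand), printed above, and its 313-nt intron 11 were listed in Control only, while its 136-nt, 173-nt and 511-nt introns were in 2 libraries of every group. Sh2d6 had 9, 9 and 16 in Control, 7, 4 and 4 in LPS, 9, 7 and 8 in NMN and 8, 8 and 11 in LPS+NMN.

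Missing from Control alone were the 74-nt intron of Cfb and a 250-nt intron of Ifi44, an interferon-induced gene listed in 2 of 3 Control libraries. Missing from LPS alone were the introns of Adgrl1 and Rsrp1 described above and a 96-nt intron of Izumo4 (chr10:80703757-80703852, plus strand), whose sequence carries a stop codon at base 6. LPS replicate 2 listed a 282-nt event of several introns from the same start in Izumo4. Listed with these exact ends in NMN alone were introns of Luc7l2, a U1 snRNP factor, Mecr, a mitochondrial fatty acid enzyme, Ppox, an enzyme of haem synthesis, and Prdm15. Listed with these ends in LPS+NMN alone were a 1794-nt intron of Gipr, the receptor of an incretin hormone, and a 4915-nt intron of Hpgds, a prostaglandin D synthase. Gipr, Hpgds, Ppox and Mecr were listed in all Control libraries, so that the genes themselves were present in those catalogues. Several of these overlap retained introns of other groups. The 504-nt intron of Luc7l2 shares an end with a 500-nt intron in 2 LPS, 2 NMN and 2 LPS+NMN libraries and lies within a 1592-nt intron in 1 Control and 9 treated libraries. The regions of the Mecr, Ppox, Gipr and Sh2d6 introns also overlapped retained introns with other ends in libraries of other groups, and the 913-nt Rsrp1 intron lies within a 1302-nt intron in all 12. A 77-nt intron of Slc25a22, a mitochondrial glutamate carrier, was in no Control, 2 LPS, 3 NMN and 3 LPS+NMN libraries.

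**Figure D5:**
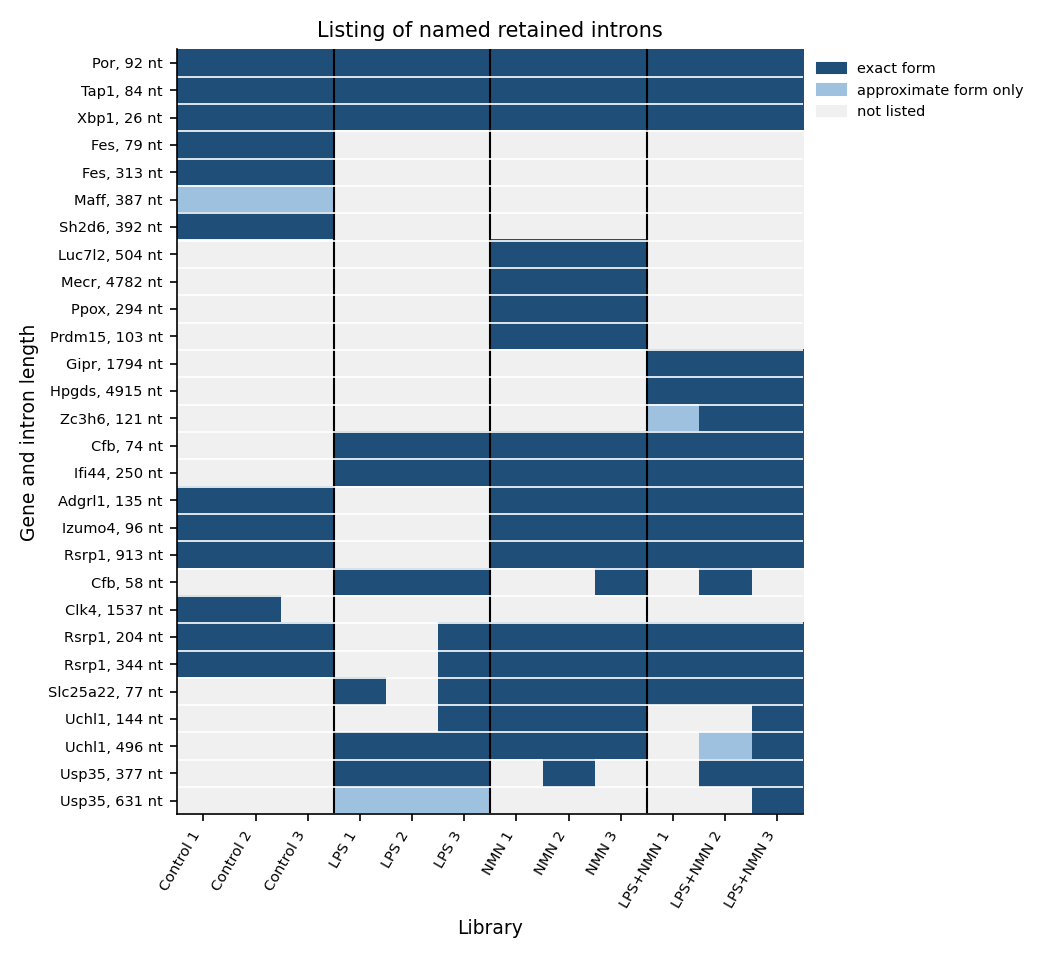
Listing of retained introns (rows, gene and length in nucleotides) in the 12 libraries (columns, grouped by treatment): dark, exact form; pale, approximate form only; grey, not listed. Most rows were chosen out of all 4640 by the pattern they show, so the pattern is no result about retained introns as a whole. The introns of Por, Tap1 and Xbp1 fill every column, those of Fes, Maff and Sh2d6 only Control, those of Cfb (74 nt) and Ifi44 every group but Control, and those of Adgrl1, Izumo4 and Rsrp1 (913 nt) every group but LPS.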

How the data were processed

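Total RNA of 12 BV-2 libraries was extracted with Trizol and 1.5 ug entered each library, per the labels' protocols. Per the submitters' processing notes, the tools were BWA 0.7.12, HOMER and MACS2 2.1.0 and the build GRCm38; no source used here names the program behind the event lists. Per the file headers, the deposited files list an event type, gene, chromosome, start, end, exon pattern and strand, and hold no counts or depth. Groups and replicate numbers come from the titles.

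Intron length is the event's end minus its start minus 1. Introns and genes were annotated with GENCODE M21 by gene, chromosome and length, and no position was converted. Tests were limma 3.58.1 (R 4.3.3; trend and robust moderation, 1 mean per group, 12 libraries, pseudocount 1, an event in at least 3 libraries, adjusted p threshold 0.05) and exact permutation tests (Python 3.11.15), with limma tested on simulated data. Genes named are the 10 with the most retained introns, the 3 longest and 3 shortest introns in all 12 libraries, all limma calls, up to 5 introns per direction set apart between groups, up to 4 members per list and 10 anchor genes. The members, lists and rules were chosen with earlier results of these data known. Same-numbered libraries did not deviate together (correlations between -0.008 and 0.0183, against -0.0181 to 0.0163 for other pairs), so replicate numbers were not used for pairing. Alternatives covered event forms, filters, pseudocount, moderation, denominators and each library left out.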

Additional observations from a re-analysis of the deposited data

How the results depend on the processing

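Of 358 values under alternatives, 276 stayed on the same side of the threshold or, for counts, within 1.5 times. A further 15 lost and 12 gained a call, 49 moved and 6 reversed, and no cause was tested. The exact permutation tests between 2 groups cannot give a p under 0.1, or under 0.25 when paired by replicate number. Their values could not cross the threshold of 0.05, so those counted among the 276 show no stability of a call. The tests with against without NMN or LPS were chosen after seeing the data. As a percent of all events, LPS minus Control was -0.0247 points (exact p = 0.8). The number with against without LPS was -4.33 in exact forms, -0.667 in genes listed in all 12 libraries, and -22.9 to 31.1 with 1 library left out (lowest without NMN replicate 1, highest without NMN replicate 3). With 1 library left out, the number with against without NMN was 70.25 (without NMN replicate 3) to 124.25 (without NMN replicate 1). The LPS difference in the splicing share was then 0.136 points (without NMN replicate 1) to 0.241 points (without NMN replicate 3). NMN minus Control ranged from 5.17 (without NMN replicate 3) to 113 introns (without NMN replicate 1). Introns in all 12 libraries had a median of 227 nt. For LPS against Control, limma called 7 genes without trend and robust moderation, 2 with pseudocount 0.5, 2 without a filter, 0 with at least 6 libraries, 2 in exact forms, 4 from only 2 groups, and 0 to 1 with a library left out; the 1 gene was lower, not higher, with the number of genes listed as covariate and without Control replicate 3. For NMN against Control it called 8 without moderation, 4 from 2 groups and 0 to 1 with a library left out. For LPS+NMN against Control it called 9 without moderation, 0 in exact forms, 8 from 2 groups, 0 with the number of genes listed as covariate, and 0 to 1 with a library left out. For LPS+NMN against LPS it called 4 without moderation, 1 without a filter, 2 from 2 groups and 0 to 1 with a library left out. Introns set apart, which then had to match in fewer libraries, numbered 76 to 98, 73 to 95, 75 to 109 and 41 to 78 in the same order of comparisons. With the replicate number as a block, limma called 1, 0, 1 and 0 genes; Cfb had limma adjusted p = 0.0962 and Ntng2 0.0032, and the paired exact permutation p for the number was 0.5, 0.75, 0.25 and 0.25, where 0.25 is the smallest possible. Same-numbered libraries did not deviate together, so these share only a number. The files give no depth, so no limit of detection can be set.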
